A study of Arabidopsis thaliana with 4 samples.

Results

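The genes described here make or modify the polysaccharides of the plant cell wall. They were taken from the platform's probe annotation as every probe set of a single gene whose symbol begins with CESA, CSLA to CSLG, GAUT, GATL, TBL, IRX, XXT, FUT or FLA and goes on with a number. This rule found 32 of the 22746 probe sets that are no controls, each for another gene, and 13513 of the 22746 are paired with a single gene. A probe set is the group of short probes that reads a gene on the Affymetrix ATH1 array. All 32 symbols are also the current RefSeq symbols (TAIR10.1 annotation). That annotation gives 137 genes a symbol of this kind, so most of the families were not analysed here, and the label of the group is only partly met. No cellulose synthase (CESA) is among the members, although RefSeq lists 7 such symbols, and no GATL, XXT, FUT or FLA gene either. Pectin synthesis is represented by GAUT15 alone. The other members are 2 CSLA, 4 CSLC and 1 CSLD gene, the xylan genes IRX15 and IRX15-L, and 22 genes of the TBL family. A comparison of cellulose, pectin and hemicellulose genes is therefore a comparison of the CSL and IRX genes with the TBL genes. The CSLA and CSLC genes belong to families of hemicellulose backbone synthases, CSLD2 to a related synthase family, and IRX15 and IRX15-L are needed for normal xylan chains without being known as synthases. GAUT15 stands as a single gene beside these groups.

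Plant cell walls consist of cellulose microfibrils embedded in hemicelluloses and pectins. Cellulose is made at the plasma membrane, whereas hemicelluloses and pectins are assembled in the Golgi apparatus and secreted. CSLC proteins make the glucan backbone of xyloglucan, the main hemicellulose of the primary wall of Arabidopsis. CSLA proteins make mannan and glucomannan backbones. TBL proteins transfer acetyl groups to wall polysaccharides, and individual members act on xylan, mannan, xyloglucan or pectin. In roots these polymers are laid down by growing epidermal and cortical cells, by root hairs and by the thickened cells of the xylem. A root-colonizing fungus meets them first at the surface of the epidermis.

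Wild-type Arabidopsis seedlings (Columbia-0) had grown for 10 days in continuous light after 48 h in the cold. They were then kept on a nylon membrane at a distance of 3 cm from a plug of 5 mm that carried either Piriformospora indica mycelium (exposed) or no hyphae (mock-treated). Root RNA was hybridized after 2 d and 6 d, which gave 4 arrays, 1 each for mock 2 d, P. indica 2 d, mock 6 d and P. indica 6 d. The labels give an age of 12 days for the 2 d arrays and of 16 days for the 6 d arrays. The material is whole root without separation of cell types, so fewer cells of a type and less RNA per cell cannot be told apart. The labels name root as the tissue, while the extraction they describe covers roots and shoots, and their free text on embryos matches no part of the study. The study's methods speak of 3 independent experiments, while the files hold 1 array per condition, and whether an array stands for 1 experiment, for pooled RNA or for a mean is not stated. With 1 array per condition there is no replicate, no error and no test, and each difference below is a difference between a pair of arrays. The authors' values are MAS5 signals, which are linear intensities. The floor was a signal of 22.2, which is the arrays' mean 40th percentile, taken on the log2 scale. Lower signals were raised to it, and a gene counted in a comparison when at least the brighter of its compared signals exceeded the floor.

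The floor left between 23 and 24 of the 32 members above it on each array. In total, 23 members lay above the floor on all 4 arrays, GAUT15 on 3, and 8 on none. The 8 are CSLA01, IRX15, TBL15, TBL19, TBL20, TBL26, TBL42 and TBL43, with signals between 0.5 and 21.6, and no ratio is given for them. Of the other tissue that the samples could hold, 3 of 14 listed genes of green shoot tissue have a named probe set. Their summed signal was 403 on the mock 2 d array, 294 on the exposed 2 d array, 510 on the mock 6 d array and 739 on the exposed 6 d array, and none of the 3 was at 0. It was thus lower in exposed roots at 2 d and higher in exposed roots at 6 d. Of 10 listed root genes 3 have a named probe set, with summed signals of 3534, 4151, 4243 and 4829 in the same order, most of it from the root beta-glucosidase PYK10. Between the time points the added hybridization controls differed as well: 18 of 18 were brighter at 6 d than at 2 d, by a median log2 difference of 0.54 on the mock arrays and of 0.59 on the exposed arrays.

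**Figure D1:**
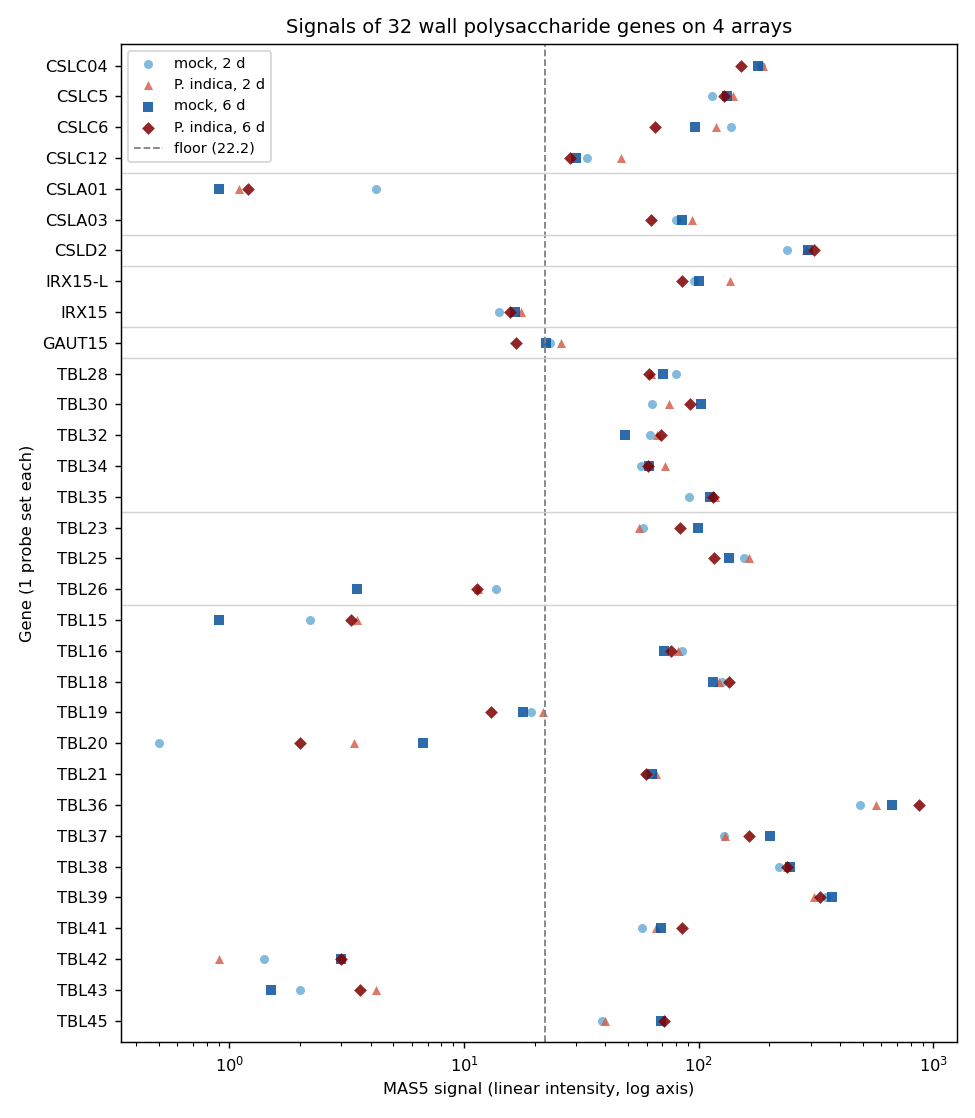
MAS5 signals (log axis) of the 32 members on the 4 arrays, 1 symbol per array, with members grouped by role and the floor of 22.2 as a dashed line. In 23 rows all 4 symbols lie to the right of the floor and in 8 rows all lie to the left.

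At 2 d, before the roots and the fungus were in contact, most of the counted genes had slightly higher signals in exposed roots. Of 24 counted members 18 were higher and 6 were lower, and the members' log2 ratios of exposed over mock had a median of 0.13. Of all 14118 probe sets counted 44.1% were higher, with a median log2 ratio of -0.03. The sizes were small: none of the 24 passed 3-fold, 2-fold or 1.5-fold, and 19 differed by less than 1.25-fold. Among all probe sets 0.347% passed 3-fold and 1.02% passed 2-fold in either direction, and 2.77% were more than 1.5-fold higher and 2.39% more than 1.5-fold lower. At these shares a set of 24 genes holds few such genes or none, so the count of 0 does not set the members apart. The median size of the log2 ratio, regardless of its sign, was 0.18 for the members and 0.17 for all probe sets.

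Of the xyloglucan genes, CSLC12 (AT4G07960) differed most at 2 d. Signals were 33.4 (mock) and 46.5 (exposed) at 2 d, and 29.9 and 28.2 at 6 d, so that the exposed 2 d array stands above the other 3. The difference at 2 d was 1.39-fold. The signals lie near the floor: the log2 ratio at 2 d was 0.48, and 0.26 with 32 added to every signal, and under a floor at the 60th percentile the gene was not counted. CSLC5 (AT4G31590) had signals of 114 and 140 at 2 d, a 1.24-fold difference, and of 132 and 128 at 6 d. CSLC04 (AT3G28180) had 185 and 188 at 2 d and 179 and 151 at 6 d, so that the low array was the exposed one at 6 d. CSLC6 (AT3G07330) went the other way at 2 d, with 137 for mock and 119 for exposed. Its signals at 6 d were 96.7 and 64.8, a difference of 1.49-fold, and it had the log2 ratio with the largest size among the members at that time point, -0.58. Over the 4 CSLC genes the ratio was above 0 for 3 at 2 d and for none at 6 d, with median log2 ratios of 0.16 and -0.16.

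CSLA03 and IRX15-L were higher in exposed roots at 2 d and lower at 6 d, whereas CSLD2 was higher at both. CSLA03 (AT1G23480), of the mannan synthase family, had signals of 80.1 (mock) and 93.2 (exposed) at 2 d and of 84.7 and 62.8 at 6 d, which is 1.16-fold higher and 1.35-fold lower. IRX15-L (AT5G67210), which is needed for normal xylan chains together with IRX15, had 95.7 and 136 at 2 d and 100 and 84.6 at 6 d. The exposed 2 d array again stands above the other 3, and the difference at 2 d, 1.42-fold, was the largest among the members. CSLD2 (AT5G16910), known for its part in root hair growth, had 238 and 286 at 2 d and 293 and 309 at 6 d. Among the 7 counted CSL and IRX genes it was the only one with a log2 ratio above 0 at both time points, 0.26 and 0.08. The root hair expansin genes EXPA7 and EXPA18, from the list of root markers, had log2 ratios of 0.47 and 0.50 at 2 d and of 0.12 and -0.21 at 6 d, and what part the number of root hairs has in the value of CSLD2 was not tested. Of these 7 genes, 6 had the higher signal in exposed roots at 2 d but 1 at 6 d, and the median of their log2 ratios was 0.26 and then -0.24. Without a floor, when CSLA01 and IRX15 enter as well, the 6 d median was -0.08.

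GAUT15 (AT3G58790), a member of the galacturonosyltransferase family of pectin synthesis, lay at the floor. Its signals were 23.2 and 26.0 at 2 d and 22.3 and 16.7 at 6 d, of which the last is under the floor. The ratio on the log2 scale was 0.16 at 2 d and for 6 d -0.01, a lower limit to the size since the exposed signal stood at the floor. Lowering the floor to the 20th percentile gave -0.42 for 6 d. No statement on pectin synthesis follows from this gene.

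The TBL genes had smaller medians and were more evenly split between the directions. Of 16 counted TBL genes 11 were higher at 2 d and 7 at 6 d, and their median log2 ratios were 0.08 and -0.03. A group of 5 acts on xylan, with medians on the log2 scale of 0.23 (2 d) and -0.02 (6 d). TBL35 (AT5G01620) had signals of 91.1 and 118 at 2 d and of 112 and 115 at 6 d, and TBL34 (AT2G38320) had 56.7 and 71.8 at 2 d and 61.6 and 60.9 at 6 d. For both, mock and exposed roots differed mainly at 2 d, by 1.29-fold and 1.27-fold. TBL32 (AT3G11030) was the reverse, with 61.8 and 66.2 at 2 d and 48.4 and 69.2 at 6 d. The low array was the mock 6 d array, and the ratio there was 1.43-fold. The probe set of TBL32 carries a suffix for possible cross-hybridization. Its log2 ratio of 0.52 at 6 d was 0.17 once the floor was raised to the 60th percentile.

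TBL28 (AT2G40150) and TBL30 (AT2G40160), which both act on xylan, are direct neighbours in the genome with no protein-coding gene between them. Their signals did not run in parallel. TBL28 had 80.3 (mock) and 62.6 (exposed) at 2 d and 70.3 and 61.2 at 6 d, lower in exposed roots at both. TBL30 had 63.5 and 74.5 at 2 d and 102 and 91.6 at 6 d, higher at 2 d and lower at 6 d. TBL19 (AT5G15900) and TBL21 (AT5G15890) are the other neighbouring pair. TBL21 had signals of 59.8, 66.0, 63.1 and 59.4 on the mock 2 d, exposed 2 d, mock 6 d and exposed 6 d arrays, while TBL19 stayed under the floor on all of them.

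Mannan is the substrate of TBL23, TBL25 and TBL26, the last of which was not counted. TBL23 (AT4G11090) had signals of 57.9 and 55.6 at 2 d and of 98.8 and 83.1 at 6 d, and TBL25 (AT1G01430) had 157 and 164 at 2 d and 134 and 116 at 6 d. Both were lower in exposed roots at 6 d, by 1.19-fold and 1.15-fold. For the other counted TBL genes no polysaccharide is named here. TBL36 (AT3G54260) had signals of 489 and 570 at 2 d and of 666 and 872 at 6 d, higher in exposed roots at both time points by 1.17-fold and 1.31-fold. TBL41 (AT3G14850), with 57.5, 65.6, 69.0 and 84.6, had the same order of arrays as TBL36. TBL37 (AT2G34070) was nearly equal at 2 d, with 128.7 and 129.1, and was 1.24-fold lower in exposed roots at 6 d, with 202 and 164. TBL39 (AT2G42570) was lower in exposed roots by 1.12-fold at each time point, with 348 and 311 at 2 d and 368 and 329 at 6 d. TBL38 (AT1G29050) had 221 and 238 at 2 d and 246 and 239 at 6 d, and TBL18 (AT4G25360) had 126 and 122 at 2 d and 115 and 134 at 6 d. The direction at 2 d was turned at 6 d for both, with log2 ratios between -0.05 and 0.22. TBL16 and TBL45 had log2 ratios between -0.05 and 0.09.

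At 6 d, when hyphae had reached the roots, the direction of most members was the other one. Of 24 counted members 8 were higher and 16 lower in exposed roots, with a median log2 ratio of -0.06. Of all 14029 probe sets counted 46.8% were higher, with a median log2 ratio of -0.02. The median size of the log2 ratio was 0.18 for the members and 0.15 for all probe sets. Again no member passed 1.5-fold, and CSLC6 lay just under it. Of all probe sets 0.107% passed 3-fold and 0.499% passed 2-fold in either direction, 2.27% were more than 1.5-fold higher and 1.35% more than 1.5-fold lower. The members outside the range from the 5th to the 95th percentile of all probe sets were IRX15-L and CSLC12 at 2 d, both above it, and CSLC6 and CSLA03 (below) and TBL32 (above) at 6 d. This is 2 and 3 of 24, where the range leaves 5% of all probe sets on each side.

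The ratios of the time points share no array and can be set side by side. Of the 24 members 12 were higher in exposed roots at 2 d and lower at 6 d, or 50%, and 2 were lower and then higher. For comparison, 13538 probe sets entered both ratios, and 19.6% of them were higher at 2 d and lower at 6 d and 21.8% the reverse. Since 18 of the 24 members were higher at 2 d and 16 were lower at 6 d, many with both signs follow from these counts alone. The count of 12 therefore does not show a reversal gene by gene. For the CSL and IRX genes alone the first order was found for 5 of 7 and for the TBL genes for 6 of 16, the remaining 1 being GAUT15. These counts go by sign alone, for members and for all probe sets, and some rest on a log2 ratio near 0. Such ratios were 0.004 for TBL37 and 0.02 for CSLC04 at 2 d. At 6 d they were -0.02 for TBL34, -0.04 for CSLC5 and TBL38, and -0.01 for GAUT15, whose exposed signal was set to the floor. The 6 d sign of TBL34 changed in 3 of 8 alternatives and that of GAUT15 in 2 of 7. The ratios of the 2 time points had a Pearson r of 0.22 and a Spearman rho of 0.26 across the 24 genes, and of 0.33 and 0.21 across all probe sets. Across the 7 CSL and IRX genes they were 0.62 and 0.61, and across the 16 TBL genes 0.33 and 0.40. Within these groups, genes with a higher ratio at 2 d thus tended to have a higher ratio at 6 d. Genes are not independent replicates and share the arrays, so these are descriptions. The shoot genes had the opposite order, lower at 2 d and higher at 6 d with median log2 ratios of -0.40 and 0.58. At 2 d the direction rests on RCA and LHCB4.1, with log2 ratios of -0.40 and -0.52. PRK had signals of 22.3 and 16.3, at and under the floor, and its -0.01 is a lower limit to the size. The part of the shoot genes in the values of the members was not tested.

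**Figure D2:**
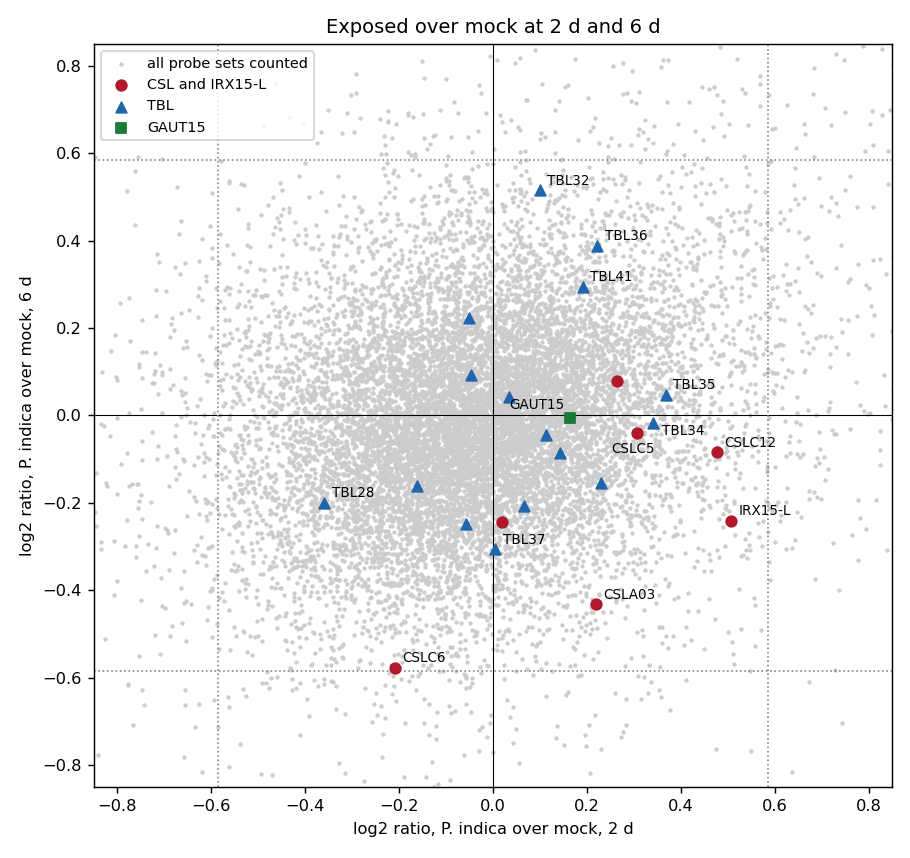
Log2 ratio of P. indica over mock at 2 d (x axis) and at 6 d (y axis) for the 24 counted members by family and for the other probe sets that entered both ratios (grey, those beyond the axes not drawn), with dotted lines at 1.5-fold. No member lies outside the dotted lines, and 12 members lie to the lower right of the origin, higher at 2 d and lower at 6 d.

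Between the time points the members' log2 differences had a median size of 0.22 for mock and 0.27 for exposed roots, beside 0.25 and 0.29 for all probe sets. In mock-treated roots 15 of 24 were higher at the later time point. Their median on the log2 scale was 0.08, and 4 were more than 1.5-fold higher, against 6.73% of all 14242 probe sets counted. None was more than 1.5-fold lower, against 8.46%. All 4 are TBL genes. TBL45 (AT2G30010) had a signal of 38.8 at 2 d and 69.3 at 6 d, 1.79-fold higher. TBL23, TBL30 and TBL37, whose signals are given above, were higher by 1.71-fold, 1.60-fold and 1.57-fold. With 32 added to every signal, which shrinks the ratios of low signals most, none of the 4 passed 1.5-fold, and their log2 differences lay between 0.49 and 0.54. In exposed roots 11 of 24 were higher at 6 d, with a median of -0.03 on the same scale. Here 2 were more than 1.5-fold higher, against 9.62% of all 14276 probe sets, and 3 more than 1.5-fold lower, against 9.93%.

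At the floor of 22.2 the genes on the higher side in exposed roots were TBL genes, and those on the lower side were CSLC genes and IRX15-L. These 2 and 3 genes are 8.33% and 12.5% of the 24 counted members, close to the 9.62% and 9.93% of all probe sets. The counts therefore do not set the members apart. Of the 24 counted members 16 are TBL genes. With the floor at the 20th percentile TBL19 and GAUT15 were also more than 1.5-fold lower, and TBL20 was too without a floor. TBL45 had 39.7 at 2 d and 71.3 at 6 d in exposed roots, a difference of 1.80-fold, and TBL36 had 570 and 872, a difference of 1.53-fold. On the lower side, CSLC6 was 1.83-fold, CSLC12 1.65-fold and IRX15-L 1.61-fold lower at 6 d than at 2 d in exposed roots. With 32 added to every signal TBL36 and CSLC6 were still past 1.5-fold, while TBL45, CSLC12 and IRX15-L had log2 differences of 0.53, -0.38 and -0.53. The value of CSLC12 before was -0.72. Of these, CSLC6 was also lower at 6 d in mock-treated roots, by 1.42-fold, whereas CSLC12 and IRX15-L had log2 differences of -0.16 and 0.06 there. For the 7 counted CSL and IRX genes the median log2 difference was 0.06 between the mock arrays and -0.57 between the exposed arrays. For the 16 TBL genes it was 0.14 and 0.07, the second turning to -0.01 without a floor. Since the ratio of exposed over mock at 2 d and the difference between time points in exposed roots use the same exposed 2 d array, a high value on that array enters both. The value of -0.57 ran from -0.59 to -0.31 over the alternative settings. For TBL45, whose 2 d signals lie near the floor, the log2 differences of 0.84 in both conditions were 0.18 and 0.22 under a floor at the 60th percentile.

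The mock and the exposed pair of time points share no array. The same direction in both was found for 16 of 24 members, 9 of them higher and 7 lower at 6 d, or 66.7%, against 76.7% of 13909 probe sets counted in both. Across the 24 genes the Pearson r was 0.75 and the Spearman rho 0.69, and across all probe sets 0.75 and 0.70. The arrays of a time point also share the offset of the hybridization controls given above, and its part in these differences was not tested.

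**Figure D3:**
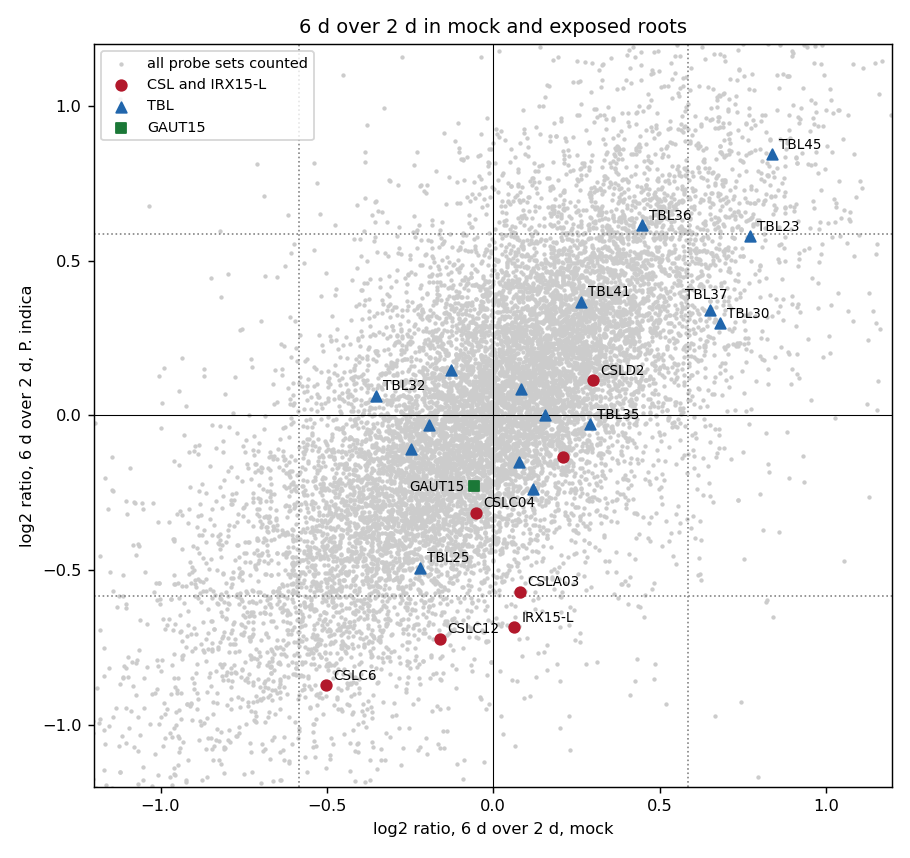
Log2 ratio of 6 d over 2 d in mock-treated (x axis) and P. indica-exposed roots (y axis) for the 24 counted members by family and for the other probe sets counted in both (grey, those beyond the axes not drawn), with dotted lines at 1.5-fold. TBL45 lies past 1.5-fold in both conditions, at 0.84 on each axis, and CSLC12, CSLC6 and IRX15-L lie past it downwards on the y axis.

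Of the wider pathway 63 genes were listed, for cellulose synthase complexes, pectin and hemicellulose side chains, callose and the regulators of secondary walls, and 4 of them have a named probe set. All 4 were counted, and none passed 1.5-fold, 2-fold or 3-fold between exposed and mock-treated roots. At 2 d 3 were higher and 1 lower, and at 6 d 2 and 2, with median log2 ratios of 0.09 and -0.01. COB (AT5G60920, COBRA), a protein anchored at the cell surface that is needed for oriented cellulose deposition, had signals of 813 and 770 at 2 d and of 557 and 579 at 6 d. It differed by 1.06-fold and 1.04-fold between the conditions and was 1.46-fold lower at 6 d than at 2 d in mock-treated roots. The other 3 (AT1G45688, AT5G42860 and AT5G15740) had log2 ratios of exposed over mock between -0.15 and 0.17 at both time points. Between the time points AT1G45688 was lower at 6 d, with log2 differences of -0.28 (mock) and -0.48 (exposed). AT5G42860 was lower too, with -0.55 and -0.61. Its 1.53-fold difference in exposed roots was the only 1 of the 4 past 1.5-fold. AT5G15740 was higher at 6 d, with 0.30 and 0.03.

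Relatives that carry one of the prefixes only as a synonym were looked up after the values had been seen. GUT2 (AT1G27440, also IRX10), which elongates the xylan backbone, had signals of 70.9 and 62.5 at 2 d and of 38.0 and 34.3 at 6 d. Exposed and mock-treated roots differed by 1.13-fold and 1.11-fold, while the signal was 1.87-fold lower at 6 d in mock-treated and 1.82-fold lower in exposed roots. This is the opposite direction to that of TBL30, another xylan gene, in both conditions. It is the same direction as that of TBL28, which had log2 differences of -0.19 (mock) and -0.03 (exposed). Of the 6 counted xylan genes among the members, 4 were higher and 2 lower at 6 d in mock-treated roots. In exposed roots 2 of the 6 were higher and 4 lower. AT2G31110 (TBL40) is read by a pair of probe sets, of which the brighter had signals of 64.9, 66.4, 42.3 and 39.9 on the mock 2 d, exposed 2 d, mock 6 d and exposed 6 d arrays. The dimmer had 34.6, 34.2, 13.3 and 16.6, so both probe sets were lower at 6 d in both conditions. In exposed roots the brighter was 1.66-fold lower, on the side where no TBL member passed 1.5-fold at the floor of 22.2. ATCSLC08 (AT2G24630) had 34.5, 27.6, 23.8 and 23.9, close to the floor.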

How the data were processed

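The authors' deposited values are MAS5 signals (linear intensities, no version given in the submitters' notes) of 4 ATH1 arrays, 1 per condition; the study's methods name 3 independent experiments, and how these enter the 4 arrays is not given. The number of arrays limits the precision, and no p-value was computed. From 22810 probe sets 64 controls were left out. The study's own test needs replicate arrays and was not repeated. Signals under the floor (22.2) were set to it, log2 ratios were formed within pairs of arrays, and the limit for a count was 3-fold, the study's limit, with 2-fold and 1.5-fold beside it. Probe sets with several genes (503) or none (8730) were not named. Members and lists were chosen with earlier results of these data known. The rule for named genes took, in each group, up to 4 members with the largest ratio of exposed over mock, up to 3 with the largest time difference in mock-treated roots and those with the highest and lowest signal, with the brightest probe set where a gene has several; the other counted members were added to give a full account. The scripts were tested on simulated data. Alternatives were floors at the 20th and 60th percentiles, no floor, quantile normalization, loess (span 0.3), centring on the median, 32 added to every signal, probe sets without suffix, and pathway genes added; relatives by synonym, the counts above 0, and the 1.5-fold counts and opposite signs under each setting were alternatives chosen after seeing the data. Ratios were computed in Python 3.11.15 with pandas 2.3.3 and numpy 2.4.6, correlations with scipy 1.17.1, loess with statsmodels 0.14.6 and figures with matplotlib 3.10.9. No sequences were used here, and gene coordinates of the RefSeq annotation served only to find members that are neighbours in the genome.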

Additional observations from a re-analysis of the deposited data

Results flagged for a closer look

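For 2 members the ratio of exposed over mock had opposite signs at the time points and moved by more than 1.5-fold between them. For IRX15-L the log2 ratio went from 0.51 at 2 d to -0.24 at 6 d, a difference of -0.75. For CSLA03 it went from 0.22 to -0.43, a difference of -0.65. Each time point has 1 array per condition, so these differences were not tested. With 32 added to every signal the differences were -0.57 and -0.46, both under 1.5-fold. With quantile normalization or loess CSLC12 joined them, with differences of -0.61 under each. With the floor lowered or left out, members under the floor of 22.2 met the same description: TBL19 and TBL26 with the floor at the 20th percentile, and TBL20 and CSLA01 too without a floor.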

How the results depend on the processing

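No paired analysis was possible because the labels carry no replicate numbers and each condition has 1 array. Over the alternatives the median log2 ratio of exposed over mock of all members ran from 0.08 to 0.18 at 2 d and from -0.09 to -0.04 at 6 d, and the direction did not change. At 2 d 18 of 24 members had a ratio above 0, 15 of 20 with the floor at the 60th percentile and 23 of 32 without a floor, which is 75%, 75% and 71.9%. At 6 d it was 8 of 24, 8 of 22 and 12 of 32. Loess gave 20 of 24 at 2 d and 10 of 24 at 6 d. The median of the CSL and IRX genes at 6 d was -0.24 and was -0.084 without a floor. Their median difference between 6 d and 2 d in exposed roots, -0.57, was -0.44 with the floor at the 20th or the 60th percentile, -0.31 without a floor and -0.38 with 32 added to every signal. No CSL or IRX gene counted in both changed its own value under another floor. The medians moved because IRX15 entered with the floor at the 20th percentile, IRX15 and CSLA01 without a floor, and because CSLC12 left at the 60th. The number of members past 3-fold was 0 in each comparison. Without a floor it was 2 at 2 d and 3 at 6 d for exposed over mock, 3 for the time difference in mock-treated and 1 in exposed roots, from a setting that also counts the 8 members under the floor. With a limit of 1.5-fold the time differences held 4 members in mock-treated (all higher) and 5 in exposed roots (2 higher, 3 lower). With 32 added to every signal these counts were 0 in mock-treated roots and 1 higher and 1 lower in exposed roots. A floor at the 60th percentile left 1 higher in exposed roots. With the floor at the 20th percentile TBL26 was 1 member past 1.5-fold higher in exposed over mock at 6 d and 1 lower in the mock time difference, and 5 were lower in the exposed one. Without a floor, exposed over mock held 3 higher and 2 lower members at 2 d and 3 higher and 1 lower at 6 d, all under the floor of 22.2 otherwise, and the lower side of the time differences held 3 in mock-treated and 6 in exposed roots. Of 754 alternative values of single members, 749 lay within the robust SD of all log2 ratios from the value given, 5 moved further without a change of sign, and none turned its sign by more than this.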
